A study of Mus musculus with 12 samples.

Results

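The C/EBP transcription factors, the paired repressors Gfi1 and Gfi1b, and a set of myeloid granule genes were followed in mouse B cell progenitors that lack EBF1 and received EBF1 or PAX5 from a retrovirus. The members were fixed by name as 10 genes (Cebpa, Cebpb, Cebpd, Cebpe, Gfi1, Gfi1b, Mpo, Elane, Prtn3 and Lyz2) out of 18193 genes named on the array. All probe sets whose platform annotation gives 1 of these symbols were taken, which gave 11 of 45037 probe sets for 9 of the genes. Cebpe was not analysed here. All 4 groups, of 3 Affymetrix arrays each, hold RNA of Ebf1-/- pre-pro-B cells on the C57BL/6 background, grown on OP9 bone marrow stroma with stem cell factor, Flt3 ligand and interleukin-7. EBF1 cells carried the Mig-EBF1 virus and were set against first-set cells carrying the empty MigR1 virus. PAX5 cells carried the Mig-PAX5 virus and were set against second-set MigR1 cells. In every group GFP-positive cells were sorted 2 days after infection, so the controls share the deletion, the culture and the infection, and expression of the factors was forced from a virus.

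C/EBP proteins are basic leucine zipper activators that act as dimers. C/EBPα starts the granulocyte and macrophage programme, C/EBPβ drives granulocyte production under stress, and either can turn B lineage cells into macrophages when forced. GFI1 and GFI1B are zinc finger repressors that recruit the demethylase LSD1 through a short N-terminal domain. GFI1 is needed for neutrophils and GFI1B for red cells and platelets. Mpo, Elane and Prtn3 encode proteins of the primary granules, made early in granulocyte development, and Lyz2 encodes lysozyme of macrophages and granulocytes. EBF1 and PAX5 are known for holding back genes of other lineages as B cells commit, and the comparisons ask how far this shows in these genes after 2 days.

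Median intensity was 55.1 to 60.6 on set 1 arrays and 65.3 to 68.9 on set 2 arrays, and precision is set by how few arrays there are. A control array and its equal-numbered partner in the other set differed by a robust SD of 0.039 to 0.094 in log2, against 0.287 to 0.374 for unequal numbers. PAX5 arrays 2 and 3 differed by 0.077, against 0.211 to 0.359 for the other 11 pairs within a group. Such arrays look like the same hybridisation summarised again, so the test used 3 control, 3 EBF1 and 2 PAX5 samples, and both comparisons rest on the same control hybridisations. Whether replicates were separate cultures is not stated in the labels, and the p-values reflect no more than the spread among these samples, which may be technical. Of 10 measured genes of pre-pro-B cells, 1, 2 and 1 read under 50 on EBF1 arrays 1, 2 and 3, 0 on each set 1 control, 0, 1 and 1 on the PAX5 arrays, and 0 on each set 2 control. The genes under 50 were Kit, a progenitor receptor, or Dntt, the terminal transferase. None of the 10 passed limma's test in either comparison. At unadjusted p under 0.05 there were 3 with EBF1 and 1 with PAX5, against 9.97% and 8.51% of all probe sets. Ebf1 itself read 1886 to 2477 in EBF1 cells and 2027 to 2173 in their controls, which checks nothing. It is not given whether its probes lie in the deleted part or in the sequence that the virus carried. Pax5 read 891 to 1849 in PAX5 cells and 7.98 to 12.8 in their controls. Of 7 measured genes of committed B cells, 5 rose with EBF1 by limma, where 0.0977% of all probe sets passed. With PAX5 2 rose, where 0.515% of all passed, and 1 of these is Pax5 itself, which the virus supplied, the other being Blnk, a B cell receptor adaptor. Ms4a1, which encodes CD20, read 3029 to 7028 in EBF1 cells and 14.5 to 22.4 in their controls. Transcripts of stroma, measured by 15 genes, summed to 2996, 1030 and 12440 in EBF1 arrays 1, 2 and 3, against 730 to 2358 in their controls. Of these 15 genes 0 passed limma's test with EBF1, and 14 of 15 had a positive change. The 7 genes of committed B cells summed to 26686, 18012 and 10914 on EBF1 arrays 1, 2 and 3. Array 3 was thus also the EBF1 array with the smallest rise of these genes. Changes in EBF1 cells are also given without array 3, which leaves out that smallest rise as well.

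No member passed limma's test in either comparison. With EBF1, 0 of the 11 probe sets had a Benjamini-Hochberg adjusted p under 0.05 over all 45037 probe sets, where 0.0977% of all probe sets passed (42 higher and 2 lower, 44 in all, against 22 with the replicate number as a block). At unadjusted p under 0.05, 2 of the 11 were lower and 0 higher, against 9.97% of all probe sets in either direction. With PAX5, 0 of the 11 passed limma's adjusted threshold, where 0.515% of all did (209 higher and 23 lower), and at unadjusted p under 0.05 there was 1 lower and 0 higher, against 8.51% of all. The median log2 change of the 11 was 0.10 with EBF1 and -0.16 with PAX5, beside 0.02 and -0.01 over all probe sets. Log2 changes are of intensity plus 16, which understates the change of dim probe sets. Mpo and Gfi1b in EBF1 cells, and Mpo in PAX5 cells, were the members behind the 3 unadjusted counts.

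**Figure D1:**
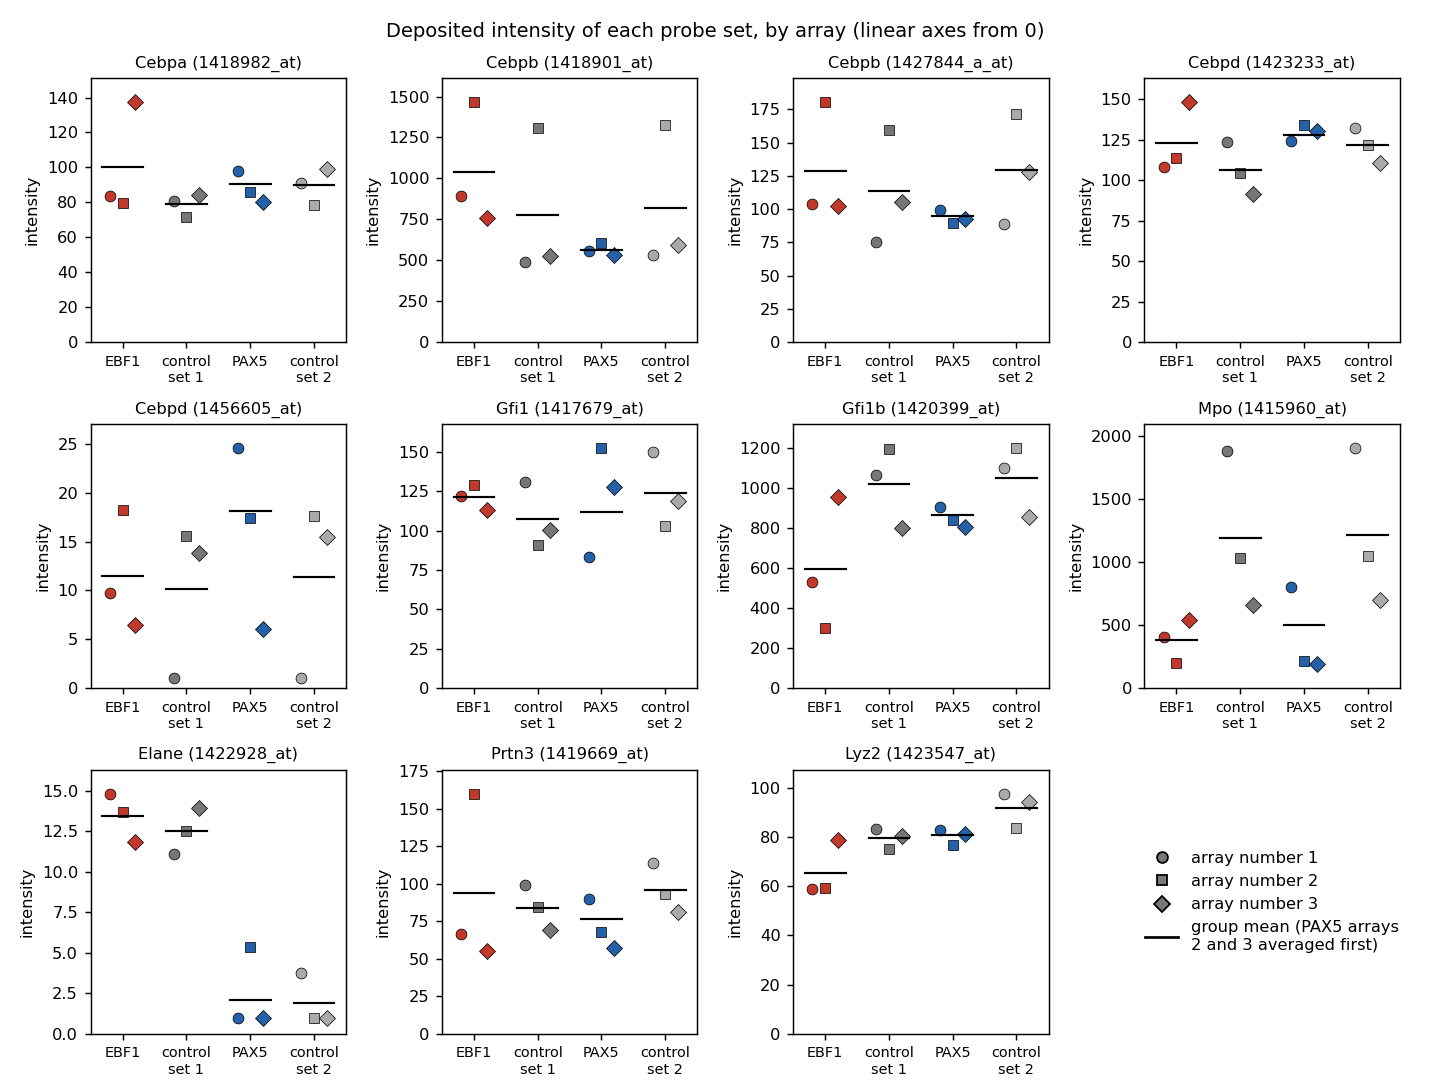
Deposited intensity (linear axes from 0, arbitrary units) of the 11 member probe sets on each array, with marker shape for the array number and a bar for the group mean. EBF1 arrays lie below all set 1 controls for Mpo, and both control sets show the same high array 2 for Cebpb.

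Promoter windows of the members with the widest spread of levels (Mpo, Gfi1b and Cebpb) are shown to place them in the genome, from RefSeq's GRCm38.p6 table, 250 bases before to 50 after the gene start, on the gene's strand. Capitals mark matches on either strand to TTGCNNAA (a C/EBP motif), AAATCA (a GFI motif) or CCCNNGGG (an EBF1 motif), which did not overlap here.
Mpo, chr11:87793534-87793833, plus strand: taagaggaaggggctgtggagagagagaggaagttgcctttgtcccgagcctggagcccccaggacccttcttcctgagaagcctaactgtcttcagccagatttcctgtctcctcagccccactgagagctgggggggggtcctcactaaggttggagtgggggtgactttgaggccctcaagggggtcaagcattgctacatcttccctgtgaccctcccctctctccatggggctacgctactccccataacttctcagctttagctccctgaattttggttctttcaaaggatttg
Gfi1b, chr2:28621933-28622232, minus strand: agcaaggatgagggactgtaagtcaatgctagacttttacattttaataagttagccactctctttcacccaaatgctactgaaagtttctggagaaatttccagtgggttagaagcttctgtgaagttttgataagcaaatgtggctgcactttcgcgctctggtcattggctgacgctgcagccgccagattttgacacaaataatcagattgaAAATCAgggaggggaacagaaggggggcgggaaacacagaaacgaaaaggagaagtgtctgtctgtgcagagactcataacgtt
Cebpb, chr2:167688665-167688964, plus strand: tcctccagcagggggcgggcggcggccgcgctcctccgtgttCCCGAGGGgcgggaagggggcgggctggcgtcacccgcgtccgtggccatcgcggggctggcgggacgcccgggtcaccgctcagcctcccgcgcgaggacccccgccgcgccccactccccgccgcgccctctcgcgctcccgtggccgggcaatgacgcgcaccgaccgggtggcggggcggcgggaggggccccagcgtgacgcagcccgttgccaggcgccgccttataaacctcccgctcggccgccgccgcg

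The Mpo window held none of the 3 motifs in these letters. The Gfi1b window held the GFI motif 34 bases before the gene start, and the Cebpb window held the EBF1 motif 208 bases before it. Over the 9 windows that matched 8 of the members, the C/EBP motif was found in 1 (Gfi1), the GFI motif in 1 (Gfi1b) and the EBF1 motif in 3 (Cebpb, Gfi1 and Prtn3). Of 32841 windows of the same length in the table, 10.8% held the C/EBP motif, 14.0% the GFI motif and 13.7% the EBF1 motif.

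Mpo, which encodes myeloperoxidase, the peroxidase of primary granules, showed the largest difference among the members in both comparisons. In EBF1 cells it read 407, 199 and 537 on arrays 1, 2 and 3, against 1876, 1034 and 660 in set 1 controls. All EBF1 arrays lay below all their controls, as 1 of 11 member probe sets did, where 6.14% of all probe sets had non-overlapping groups in this direction and 7.06% in the other, which 0 members showed. The means were 381 ± 171 in EBF1 cells and 1190 ± 623 in controls (SD, n = 3 each). The log2 change was -1.58 (SE 0.55, 95% interval -2.84 to -0.32), with limma adjusted p = 0.39. The interval leaves out 0, and the difference did not pass once adjusted over all 45037 probe sets. Between arrays of equal number the log2 differences were -2.16, -2.29 and -0.29, lower in 3 of 3. With the replicate number as a block the adjusted p was 0.29 by limma. Without EBF1 array 3 the change was -1.87 (limma adjusted p = 0.26). In bulk RNA, fewer Mpo-expressing cells and less Mpo RNA per cell cannot be told apart.

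In PAX5 cells Mpo read 798, 215 and 192 on arrays 1, 2 and 3, against 1901, 1043 and 695 in set 2 controls. Arrays 2 and 3, counted as 1 sample, lay below all controls, while array 1 lay inside the control range. PAX5 cells averaged 501 ± 420 (SD, n = 2) and controls 1213 ± 621 (SD, n = 3). The log2 change was -1.42 (SE 0.62, 95% interval -2.83 to -0.01), with limma adjusted p = 0.58. It was -2.37 without array 1, by limma with 1 remaining PAX5 sample assumed to vary like the other groups (adjusted p = 0.64). The EBF1 change minus the PAX5 change of Mpo was -0.16 (95% interval -1.57 to 1.25, limma adjusted p = 0.94), so the 2 factors did not differ detectably here and the interval spans sizeable differences in either direction. By profile over the 8 samples, the genes nearest to Mpo were Lrp1, a lipoprotein receptor, Ptger2, a prostaglandin receptor, and Tspan9, a tetraspanin. Their root-mean-square differences were 0.34, 0.40 and 0.52 log2 units, against an SD of 1.08 for Mpo itself.

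The other granule genes had log2 changes closer to 0. Prtn3, which encodes proteinase 3, read 66.6, 160 and 55.3 in EBF1 cells, against 99.2, 84.2 and 68.8 in their controls. EBF1 array 2 was the highest array of set 1 and arrays 1 and 3 the lowest, so the groups overlapped (log2 change 0.03, 95% interval -0.69 to 0.74, limma adjusted p = 0.99). Without EBF1 array 3 the change was 0.28 (limma adjusted p = 0.80), and without array 2 it was -0.37 (0.62). PAX5 cells read 89.9, 67.9 and 57.3 for Prtn3, against 114, 93.0 and 81.4 in set 2 controls (log2 change -0.29, 95% interval -1.09 to 0.51, limma adjusted p = 0.91). Array 2 of EBF1 therefore combined the lowest Mpo and the highest Prtn3 of its set.

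Elane, which encodes neutrophil elastase and lies beside Prtn3 in the genome, was near the bottom of the scale. Its values were 14.8, 13.7 and 11.8 in EBF1 cells and 11.1, 12.6 and 13.9 in their controls. PAX5 cells listed 1, 5.36 and 1, and set 2 controls 3.78, 1 and 1. Control arrays that look like 1 hybridisation thus read higher in set 1 than in set 2, so a dim level cannot be set across the sets, and values at 1 carry no order. The log2 changes of 0.05 with EBF1 (limma adjusted p = 0.94) and 0.01 with PAX5 (0.998) rest on this dim signal, as does the 0.09 with EBF1 without array 3.

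Lyz2 lay near the middle of the array, with a mean level above 54.9% of all probe sets. It read 58.8, 59.1 and 78.6 in EBF1 cells, against 83.2, 74.9 and 80.5 in set 1 controls, with array 3 inside the control range. The log2 change was -0.24 (95% interval -0.53 to 0.06, limma adjusted p = 0.60), and -0.35 without array 3 (limma adjusted p = 0.31). Between arrays of equal number Lyz2 was lower in 3 of 3, by log2 differences of -0.41, -0.28 and -0.03. PAX5 cells read 82.7, 76.6 and 81.0, all below the 97.4, 83.6 and 94.0 of set 2 controls. This was the 1 of 11 member probe sets with PAX5 arrays all lower, where 8.77% of all probe sets had that pattern and 8.14% the opposite one, which 0 members showed. Its size was small (log2 change -0.15, 95% interval -0.48 to 0.18, limma adjusted p = 0.86). Lyz1, the neighbouring copy made by gut and some myeloid cells, is close to identical in sequence, so probes may read both genes. Its brightest probe set read 24.4, 31.3 and 55.0 in EBF1 cells, against 130, 78.0 and 74.5 in their controls (log2 change -1.06, limma adjusted p = 0.19).

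Gfi1b had the lowest change in EBF1 cells after Mpo. It read 530, 299 and 956 on EBF1 arrays 1, 2 and 3, against 1069, 1195 and 801 in set 1 controls. Arrays 1 and 2 lay below all controls and array 3 inside their range. EBF1 cells averaged 595 ± 333 and controls 1022 ± 201 (SD, n = 3 each), a log2 change of -0.89 (SE 0.35, 95% interval -1.69 to -0.09) with limma adjusted p = 0.45. The size of this value rested on array 2 and on array 3, the one rich in stromal transcripts. Without it the change was -1.30 (95% interval -1.89 to -0.72), with limma adjusted p = 0.060, which still missed the threshold. Without array 2 it was -0.49 (limma adjusted p = 0.64). Between arrays of equal number the signs were mixed, at -0.99, -1.94 and 0.25. The part of the stromal transcripts in the result was not tested.

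In PAX5 cells Gfi1b read 907, 841 and 806, against 1100, 1201 and 857 in set 2 controls. PAX5 array 1 and control array 3 crossed, so the groups overlapped (log2 change -0.27, 95% interval -1.16 to 0.63, limma adjusted p = 0.93). The EBF1 change minus the PAX5 change was -0.63 (95% interval -1.52 to 0.27, limma adjusted p = 0.52). Over the 8 samples the profiles nearest to Gfi1b were those of 1810006J02Rik, Id2, an inhibitor of E proteins, and Mfsd2b, a lipid transporter of red cells and platelets, at root-mean-square differences of 0.24, 0.24 and 0.25 log2 units, against an SD of 0.62 for Gfi1b. Of the 9 measured erythroid and megakaryocyte genes, which mark the lineages that need GFI1B, 0 passed limma's test in either comparison. At unadjusted p under 0.05 there were 0 with EBF1 and 2 with PAX5, against 9.97% and 8.51% of all probe sets.

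Gfi1 read 122, 129 and 113 in EBF1 cells, against 131, 90.8 and 100 in set 1 controls, with full overlap of the ranges. The log2 change was 0.17 (95% interval -0.27 to 0.60, limma adjusted p = 0.84), and 0.21 without array 3 (0.78). PAX5 cells read 83.2, 153 and 128, and set 2 controls 150, 103 and 119. Here PAX5 array 1 was the lowest and array 2 the highest of the set, although the change over all samples was -0.16 (95% interval -0.64 to 0.33, limma adjusted p = 0.92). None of the 7 measured genes for GFI partners passed in either comparison by limma, also at unadjusted p under 0.05. The brightest were Hdac1 and Hdac2, histone deacetylases, and Kdm1a, which encodes LSD1, with log2 changes of -0.11, 0.02 and -0.05 with EBF1 and -0.06, -0.22 and -0.17 with PAX5.

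Cebpb was the C/EBP gene whose levels varied most, and array number 2 was high in more than 1 group. Its brighter probe set read 894, 1464 and 760 in EBF1 cells, against 491, 1308 and 527 in set 1 controls. EBF1 cells averaged 1039 ± 374 and controls 775 ± 462 (SD, n = 3 each), with overlapping ranges. Between arrays of equal number EBF1 was higher in 3 of 3, by 0.84, 0.16 and 0.52 in log2. The log2 change of 0.51 (SE 0.36, 95% interval -0.31 to 1.33) had limma adjusted p = 0.70, and 0.33 with the replicate number as a block. It was 0.95 without control array 2, 0.31 and 0.26 without control array 3 or 1, 0.23 without EBF1 array 2 and 0.70 without EBF1 array 3 (limma adjusted p = 0.25, 0.87, 0.94, 0.92 and 0.55). PAX5 cells read 554, 602 and 530, against 535, 1324 and 595 in set 2 controls. All PAX5 arrays stood near the lower 2 controls, and without control array 2 the log2 change of -0.41 (limma adjusted p = 0.86) was -0.01.

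The EBF1 change minus the PAX5 change of this Cebpb probe set was 0.92 (95% interval 0.00 to 1.84). Of the 11 member probe sets it alone was at unadjusted p under 0.05 for that difference, where 14.7% of all probe sets were, and its limma adjusted p was 0.34. No member passed the adjusted threshold for the difference by limma, where 1.05% of all probe sets did. The other Cebpb probe set read 104, 180 and 102 in EBF1 cells, against 75.1, 160 and 106 in their controls, with array 2 the highest of both groups. It read 99.2, 89.6 and 92.7 in PAX5 cells, where array 2 was the lowest, against 88.6, 171 and 128 in set 2 controls. Its log2 changes were 0.17 with EBF1 (limma adjusted p = 0.89), 0.30 without EBF1 array 3 (0.76), and -0.35 with PAX5 (0.83). Between arrays of equal number EBF1 was higher on this probe set in 2 of 3, by log2 differences of 0.40, 0.16 and -0.04. Nearest to the Cebpb profile were Ifrd1, a gene induced by stress and growth signals, Fam185a and Cdk18, a cyclin-dependent kinase, at root-mean-square differences of 0.13, 0.17 and 0.17 log2 units, against an SD of 0.61 for Cebpb.

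Cebpa, which encodes C/EBPα, passed the test with neither factor. It read 83.6, 79.5 and 137 in EBF1 cells, against 80.8, 71.6 and 84.0 in set 1 controls. Array 3, which held the most stromal transcripts, was the highest of the set. Between arrays of equal number EBF1 was higher in 3 of 3, by 0.04, 0.12 and 0.62 in log2. The log2 change was 0.26 (95% interval -0.17 to 0.69, limma adjusted p = 0.71), and 0.04 without array 3 (95% interval -0.28 to 0.36, limma adjusted p = 0.95). PAX5 cells read 97.8, 86.2 and 80.3, within the 91.2, 78.7 and 99.4 of set 2 controls (log2 change 0.01, 95% interval -0.47 to 0.49, limma adjusted p = 0.9991).

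Cebpd, a C/EBP gene of acute inflammation and of fat and stromal cells, read 108, 113 and 148 on its brighter probe set in EBF1 cells, against 124, 104 and 91.3 in their controls. Array 3 was again the highest. Its log2 change of 0.18 (95% interval -0.15 to 0.51, limma adjusted p = 0.75) became 0.06 without array 3 (limma adjusted p = 0.92), and the part of stromal cells in Cebpa and Cebpd readings was not tested. PAX5 cells read 124, 134 and 130, against 132, 122 and 111 (log2 change 0.07, limma adjusted p = 0.96). The second Cebpd probe set lay between 1 and 24.6 on all arrays, too dim to order the groups (log2 change 0.10 with EBF1, 0.24 without array 3 and 0.34 with PAX5).

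**Figure D2:**
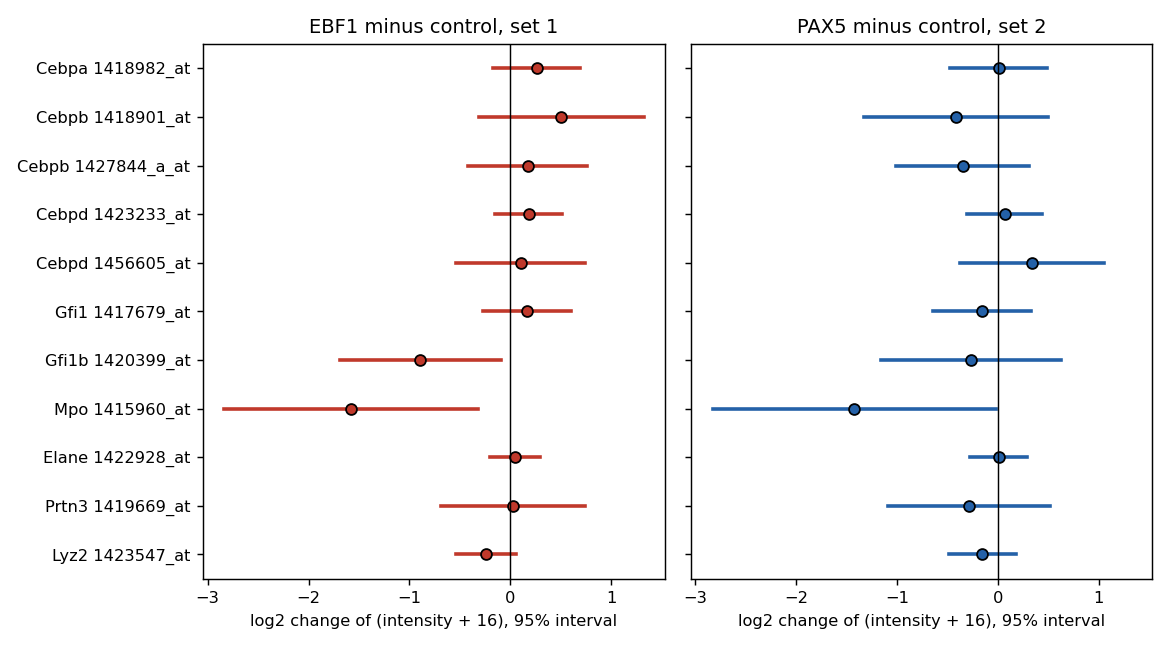
Log2 change of intensity plus 16 (points) with its 95% interval (bars) for the 11 member probe sets, EBF1 minus control on the left and PAX5 minus control on the right. Mpo has the lowest point in both panels, at -1.58 and -1.42, and all but Mpo and Gfi1b with EBF1 and Mpo with PAX5 have intervals that span 0.

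Other genes of the myeloid programme were read from lists. Of 21 measured genes of granules and neutrophil differentiation, 0 passed limma's test with EBF1 and 7 were at unadjusted p under 0.05, 6 lower and 1 higher, where 9.97% of all probe sets were (median log2 change -0.10). The 6 were Ctsg, Ms4a3, Serpinb1a, Chil3, Cyba and Ncf1, with log2 changes of -0.70 to -0.39, and the 1 was Cybb. Ctsg read 1 to 4.48 in EBF1 cells and 6 to 21.7 in set 1 controls, and Chil3 read 1 to 4.14 and 6.62 to 8.91. Ms4a3 read 14.1 to 17.5 in EBF1 cells, against 81.8, 20.6 and 20.8 in set 1 controls. The equal-numbered set 2 controls read 88.3, 135 and 138. The changes of Ctsg, Chil3 and Ms4a3 thus rest on dim signal, while Serpinb1a, Cyba and Ncf1 were brighter. For Ctsg, Chil3 and Ms4a3 the equal-numbered controls ran in unlike order in the 2 sets, and the fit averaged them. Their unadjusted p by limma therefore does not measure the spread among set 1 controls alone. With PAX5, 0 passed and 3 were at unadjusted p under 0.05, 1 lower and 2 higher, where 8.51% of all were (median -0.07). The summed level of this list was 17835 to 18682 in EBF1 cells, 19251 to 21191 in set 1 controls, 20111 to 22051 in PAX5 cells and 19183 to 21066 in set 2 controls. It was carried by Srgn, the granule proteoglycan, Ctsc, the protease that activates granule enzymes, and Cyba, a subunit of the NADPH oxidase. Their log2 changes with EBF1 were 0.01, 0.02 and -0.50, none past limma's threshold. Cybb, another oxidase subunit, had a log2 change of 1.27 with EBF1 (limma adjusted p = 0.052). It rose by 1.23 without array 3 (limma adjusted p = 0.032), as 1 of the 21, where 1.33% of all probe sets passed. Cybb was dim too, at 41.3, 68.0 and 59.5 in EBF1 cells against 15.8, 18.95 and 7.27 in set 1 controls. The equal-numbered set 2 controls read 33.6, 39.2 and 31.7 for it. Among genes of later neutrophil stages, Ltf, the lactoferrin gene, read 1 to 7.4 on set 1 arrays and 19.55 to 28.3 on set 2 arrays. Camp, which encodes a granule peptide, read 1 to 5.45 on set 1 arrays and 23.05 to 39.3 on set 2 arrays. Both differed between the sets in the controls too, so these levels cannot be set across the sets. S100a9, a calcium-binding protein gene, read 1.07 to 9.04 over the 12 arrays. Ngp, another granule protein gene, read 160 to 240.4, and Mmp9, the gelatinase gene, 51.4 to 85.5.

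Of 15 measured monocyte and macrophage genes, 0 passed limma's test with EBF1 and 7 were at unadjusted p under 0.05, 6 lower and 1 higher, where 9.97% of all probe sets were. The median log2 change was -0.36, with 9 of the 15 below 0. The 6 were Itgam, Fcgr3, Adgre1, Cd68, Ccr2 and Lyz1, and the 1 was Csf1r, the macrophage growth factor receptor. Csf1r was dim in set 1, at 42.6, 49.4 and 38.5 in EBF1 cells against 33.55, 35.2 and 30.2 in controls. Set 2 controls read 466 to 527 for it, although equal-numbered controls look like 1 hybridisation. The summed level was 3830 to 4567 in EBF1 cells and 4958 to 7333 in their controls. It was 10185 to 14131 in PAX5 cells and 5917 to 8046 in theirs, where the median log2 change was 0.13. A few bright genes weigh most in these sums, Fcgr3 in the lower EBF1 sum and Ccr2 and Ctss in the higher PAX5 sum. The sums therefore do not show a shift of the whole list. Fcgr3, a low-affinity Fc receptor, read 1002, 793 and 2032 in EBF1 cells, against 3195, 2189 and 2850 in controls (log2 change -1.20, limma adjusted p = 0.24). Ctss, a lysosomal protease gene, and Csf2rb, a cytokine receptor subunit, were at 0.55 and 0.28 (limma adjusted p = 0.83 and 0.80). Without EBF1 array 3, where 1.33% of all probe sets passed, 4 of the 15 fell and 0 rose by limma. These were Adgre1, the F4/80 antigen, with a log2 change of -2.55 (limma adjusted p = 0.0012), Fcgr3 with -1.59 (0.0092), Mrc1, the mannose receptor, with -1.27 (0.022), and Lyz1 with -1.30 (0.035). On array 3 itself Adgre1 read 399, against 55.9 and 62.7 on EBF1 arrays 1 and 2 and 341 to 597 in controls. Array 3 was also the EBF1 array with the smallest rise of committed B cell genes, so leaving it out keeps the arrays with the larger rise. The part of this and of the stromal transcripts of array 3 in these values was not tested. With PAX5, 1 of the 15 rose and 0 fell: Ccr2, a chemokine receptor of monocytes, read 3406, 2129 and 2177, against 318, 370 and 241 in set 2 controls (log2 change 3.08, limma adjusted p = 0.0039). Ctss read 3158, 2209 and 2043 in PAX5 cells, against 693, 1058 and 276 in set 2 controls (log2 change 2.11, limma adjusted p = 0.36), and Ccr2 and Ctss were the 2 genes of this list at unadjusted p under 0.05 with PAX5.

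Regulators of these genes gave no call over all arrays. Of 10 factors that steer myeloid choice, 0 passed limma's test in either comparison. With EBF1, 5 were at unadjusted p under 0.05 (3 higher and 2 lower), where 9.97% of all probe sets were. With PAX5, 1 was, higher, where 8.51% of all were. The 3 higher with EBF1 were Klf4, Egr1 and Egr2, with log2 changes of 1.32, 1.38 and 0.52 (limma adjusted p = 0.28, 0.45 and 0.22). Egr2 was dim, at 34.0 to 50.6 in EBF1 cells. The 2 lower were Id2 and Spi1, the latter at -0.35 (limma adjusted p = 0.50). Id2 read 629, 648 and 1167 on EBF1 arrays 1, 2 and 3, against 1756, 1853 and 1306 in set 1 controls. Its log2 change was -1.04 with EBF1 (limma adjusted p = 0.19). Id2 fell by 1.32 without array 3 (0.011), where 1.33% of all probe sets passed. Irf8, a factor of monocytes, dendritic cells and B cells, was at -0.69 with EBF1 (0.53) and 1.89 with PAX5 (0.082), and Myb, a progenitor factor, at -0.04 and 0.08. Among 5 measured C/EBP relatives and Tribbles genes 0 passed, also at unadjusted p under 0.05. The brightest were Cebpg, a partner without an activation domain, Ddit3, the stress-induced C/EBP relative CHOP, and Trib3, a stress-induced pseudokinase. Trib3, like Cebpb, was high on arrays numbered 2, at 554, 1343 and 521 in EBF1 cells against 294, 1810 and 480 in their controls, while PAX5 cells read 236, 329 and 309. Of 8 eosinophil, basophil and mast cell genes 0 passed in either comparison, and their sum was 238 to 283 in EBF1 cells, 262 to 324 in set 1 controls, 172 to 186 in PAX5 cells and 153 to 191 in set 2 controls.

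**Figure D3:**
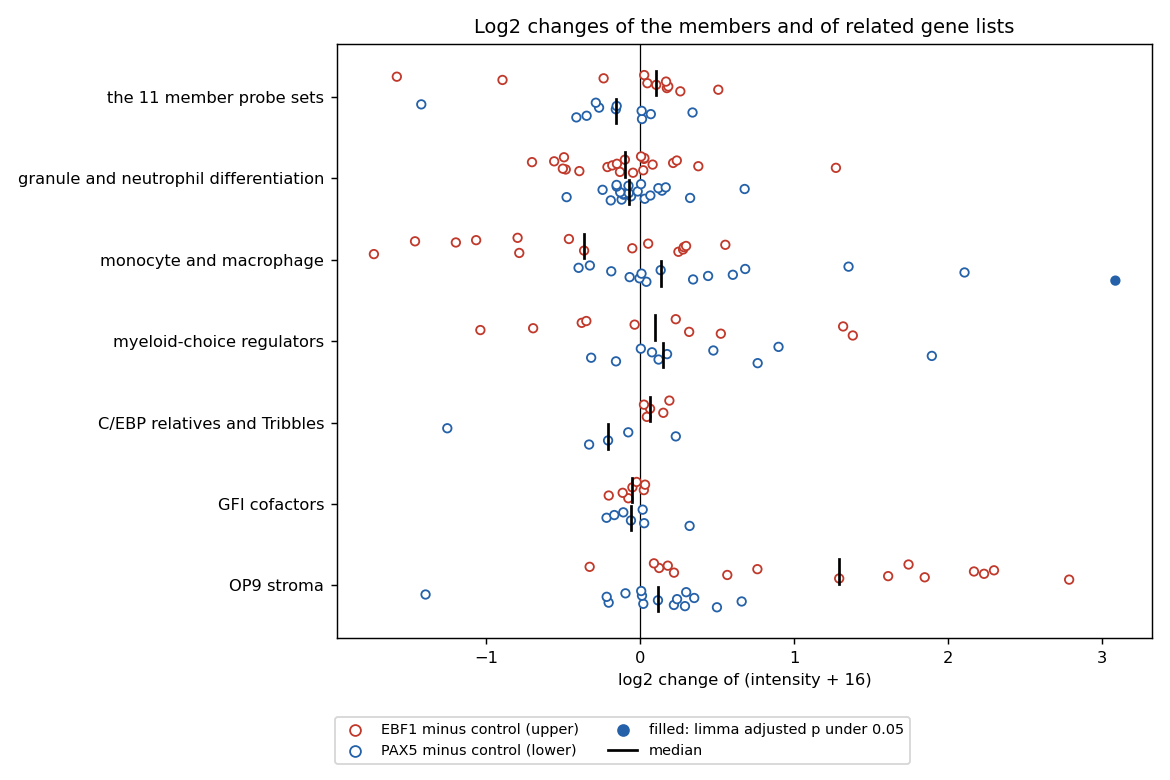
Log2 change of intensity plus 16 for the 11 member probe sets and for the brightest probe set of each gene in 6 lists, EBF1 minus control above and PAX5 minus control below in each row, with black bars for medians. The single filled point is Ccr2 at 3.08 with PAX5, the only gene of these lists past limma's adjusted threshold in the 2 comparisons.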

How the data were processed

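The authors deposited linear microarray intensities, 1 value per probe set and array. Their summarisation and normalization steps are not named in the labels or the file. Genes come from the platform annotation. The symbols of all 11 member probe sets matched RefSeq by Entrez ID.

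Intensities were used as log2(intensity + 16) with no filter. Equal-numbered control arrays were averaged after the offset between control sets was removed for each probe set, and PAX5 arrays 2 and 3 were averaged, as intensities for the means and SDs. Limma 3.58.1 in R 4.3.3 (lmFit, eBayes, Benjamini-Hochberg over 45037 probe sets, threshold 0.05) was fitted once to the 8 samples (5 residual and 3.68 prior degrees of freedom) and tested on simulated data. Figures were drawn with matplotlib 3.10.9.

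All probe sets of the members are named. In other lists, of which each gene is its brightest probe set, the rule names genes that pass a test and otherwise the 3 brightest, and nearest profiles are given for members with an SD of at least 0.5. Other genes of these lists that the text names were named after their values were seen. Members and lists were chosen with earlier results of these data known. Alternatives were other pseudocounts, normalizations, filters, probe set rules, ways of counting arrays and left-out arrays.

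Deviations from the group means of equal-numbered EBF1 and control arrays correlated at 0.35, 0.61 and 0.39 over 12889 bright probe sets, so the numbers were taken to pair them. For PAX5 they correlated at 0.41, 0.19 and 0.33, but arrays 2 and 3 were counted as 1 sample and cannot pair with 2 controls.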

Additional observations from a re-analysis of the deposited data

How the results depend on the processing

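No member probe set passed limma's adjusted threshold under any alternative run, which were 20 for EBF1, 20 for PAX5 and 18 for the difference between the factors. Mpo was lower in EBF1 cells in all 20 (log2 change -1.93 to -1.19, limma adjusted p = 0.26 to 0.75), as it was in PAX5 cells (-2.37 to -1.04, adjusted p = 0.057 to 0.73), and Gfi1b was lower in EBF1 cells in all 20 (-1.30 to -0.49, adjusted p = 0.060 to 0.75). Part of these runs could not move the log2 change of a gene with 1 probe set, such as the filter, the probe set rules and the trended, robust prior. For EBF1, the ways of counting arrays, the block and leaving out PAX5 arrays also kept Mpo at -1.58 and Gfi1b at -0.89. The shared sign was therefore fixed in advance for those runs. Counts over all probe sets depended more on the settings. For EBF1, against 44, limma called 14 with a pseudocount of 64, 295 with all 12 arrays counted separately, 18 with the 6 arrays of set 1, and 90 with a trended, robust prior. For PAX5, against 232, it called 153 with a pseudocount of 4, 638 with 12 arrays counted separately, 378 with the 6 arrays of set 2, and 153 with the mean of each gene's probe sets, which tests fewer features. For the difference, against 473, it called 287 with a pseudocount of 4, 208 with 12 arrays counted separately and 745 with the trended, robust prior. The cause of these shifts was not tested.

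With the replicate number as a block, limma called 22 probe sets for EBF1 against 44 without it, and 257 for PAX5 against 232, and the pairing changed no member's call. In that fit Mpo with PAX5 was at -1.74 (limma adjusted p = 0.057), with PAX5 arrays 2 and 3 entered separately.

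Leaving out 1 array at a time gave 18 to 597 calls for EBF1, 50 to 263 for PAX5 and 78 to 874 for the difference. For EBF1 there were 597 without EBF1 array 3, 23 without EBF1 array 2, 22 without PAX5 array 1, and 18, 19 and 19 without control 1, 2 or 3. For PAX5 there were 50 without PAX5 array 1, where the remaining PAX5 sample was assumed to vary like the other groups, and 142, 119 and 99 without control 1, 2 or 3. For the difference there were 874 without EBF1 array 3, 234 and 216 without EBF1 array 1 or 2, 78 without PAX5 array 1 and 305 without control 3.

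Of the changes that turned sign, none was called in any setting. With EBF1, Prtn3 was at -0.0061 after quantile normalization and -0.014 after median centring, and leaving out 1 array gave -0.37 to 0.28 for Prtn3, -0.067 to 0.42 for the dimmer Cebpb probe set and -0.18 to 0.27 for the dimmer Cebpd probe set. With PAX5, Cebpa was at -0.021 with 12 arrays, with 6 arrays and with the replicate block, and leaving out 1 array gave -0.087 to 0.077 for Cebpa, -0.073 to 0.092 for Elane and -0.27 to 0.17 for Gfi1. For the difference, Elane was at -0.0071 after quantile normalization and -0.0037 after median centring, Mpo at 0.16 with 12 arrays and Cebpd at -0.061 as the mean of its probe sets. Leaving out 1 array gave -0.011 to 0.19 and -0.41 to 0.055 for the brighter and dimmer Cebpd probe sets, -0.072 to 0.12 for Elane, -0.45 to 0.79 for Mpo and -0.085 to 0.57 for Prtn3. The filter on mean intensity left no value for Elane and the dimmer Cebpd probe set. The difference has no fit with 6 arrays or with the block.

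Elane and the dimmer Cebpd probe set had mean intensities under 50, and with 2 to 3 samples a group the intervals of the members bound what was detectable here. The list counts without EBF1 array 3 were an alternative chosen after seeing the data.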
